A study of Drosophila melanogaster with 10 samples.

Results

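The genes described here were 83 genes of Drosophila melanogaster known only by a CG number, the gene models' serial label, whose transcripts stood far lower in Jarid2 mutant eye-antenna disc cells than in control disc cells. They were chosen by their disc values: the mean log2 expression of the 2 control arrays exceeded that of the 2 mutant arrays by at least 2, a 4-fold difference, and both control arrays lay above both mutant arrays. Of 11982 genes with a probe set of their own, 5209 carried only a CG number, and 83 of these met the rule. The disc difference of these genes is therefore a description and was not tested. The whole larvae took no part in this disc contrast, so the larval comparisons were tested. Larval levels entered only the choice of the brightest probe set, in genes with several.

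The 10 RNA samples were hybridised to 1-colour Affymetrix arrays, 2 arrays in each of 5 groups. Control larvae, labelled wild type, Jarid2 mutant larvae and larvae labelled E(z) RNAi were whole animals of the third instar, 20 per sample, raised at 25 °C. The disc groups, control (wild type) and Jarid2 mutant, were cells of about 500 eye-antenna discs per sample that were trypsinised and separated by GFP fluorescence; the labels do not say which fraction was hybridised. The mutant line, stock 22958, was Jarid2MB00996/TM3, a Minos transposon insertion kept over a balancer chromosome; the labels do not state whether animals with 1 or 2 copies were taken. The RNAi line, stock 27993, was UAS-E(z)-RNAi; the labels name no GAL4 driver, and the genotype field of those 2 arrays reads wild type.

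Jarid2 encodes a protein that joins Polycomb repressive complex 2, which places a repressive methyl mark on histone H3, and E(z) encodes the methyltransferase of that complex. The series asks which functions of Jarid2 depend on the complex. A CG number marks a predicted gene without a published name, and many such genes belong to known protein families. Eye-antenna discs are epithelial sacs of the larva from which eye, antenna and head capsule develop; haemocytes, the blood cells of the fly, can lie on their surface, and muscle precursors lie beneath parts of them.

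The labels were checked first on the targeted genes. Jarid2 read 9.63 and 9.48 in control larvae and 4.19 and 4.26 in mutant larvae, and 10.14 and 10.10 in control discs against 7.64 and 6.80 in mutant discs. The E(z) probe set read 8.53 and 8.31 in control larvae and 9.25 and 9.56 in larvae labelled E(z) RNAi, where no fall was seen, so directions in that comparison are those of arrays labelled E(z) RNAi. Whether either probe set lies in the part of the gene that the insertion or the RNAi affects is not stated. Values are log2 expression, on which a difference of 1 is 2-fold; lower quartiles of all probe sets lay between 4.20 and 4.27 in discs and between 5.09 and 5.30 in larvae, and a level under them is taken here as near background.

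The disc differences of the 83 genes ran from 2.04 to 6.75, or from 4.12-fold to 108-fold, with a median of 3.33 (10.1-fold). They were at least 5 in 14 genes, between 4 and 5 in 12, between 3 and 4 in 28 and between 2 and 3 in 29. The 83 were 1.59% of the genes with only a CG number. The opposite pattern, mutant above control by at least 2 without overlap, was met by 0 of the 5209, or 0.00%. Among genes with other symbols 95 of 6773 (1.40%) met the same rule and 2 met the opposite. No meaning is read from these shares, since the rule used this contrast.

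**Figure D1:**
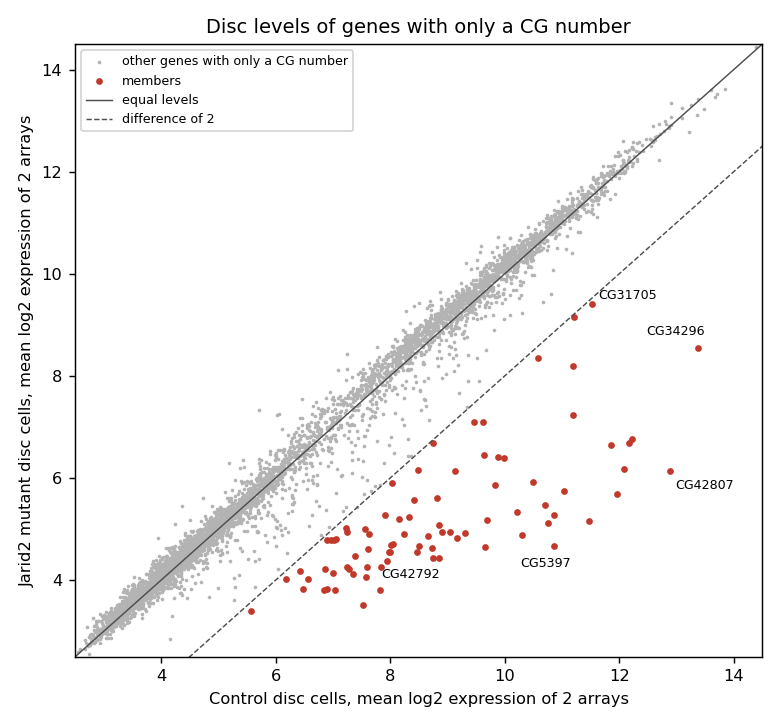
Mean log2 expression of the 2 control disc arrays (x axis) against that of the 2 Jarid2 mutant disc arrays (y axis) for the 5209 genes with only a CG number; red points are the 83 members, the solid line marks equal levels and the dashed line a difference of 2. Members lie below the dashed line, over control levels from 5.57 to 13.37, and no grey point lies as far above the solid line.

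CG42807 showed the widest gap. It read 12.46 and 13.31 in control discs and 5.26 and 6.995 in mutant discs, a difference of 6.75. The mutant arrays themselves stood apart from each other, so that the smallest gap between a control and a mutant array was narrower than the gap of the means. CG30148 read 10.93 and 11.999 in control discs and 4.73 and 5.58 in mutant discs. CG5397 read 10.47 and 11.27 against 4.62 and 4.70, and its mutant arrays were nearly equal. In both genes each mutant array lay far below each control array; the second mutant array of CG30148 lay at about the median of its array.

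CG14629 read 11.88 and 12.29 in control discs and 5.81 and 6.55 in mutant discs. CG34331 read 10.24 and 11.28 against 5.04 and 5.19. CG8501 read 12.03 and 12.32 against 6.54 and 6.82. In these 3 genes control and mutant arrays were far apart and the replicates of each group were within about 1 unit of each other. CG4250 read 11.98 and 12.47 against 6.34 and 7.19, and CG4950 read 10.36 and 10.24 against 4.69 and 5.07. CG4950 differed from the genes before it in that its first control array was slightly the higher. CG31337 read 10.68 and 11.39 against 5.52 and 5.98, and CG31431 read 10.08 and 11.32 against 5.39 and 5.57. CG33494, with 11.51 and 12.19 against 6.34 and 6.95, completed the genes given no family here among the 14 with a difference of at least 5.

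Readings of different probe sets depend on their probes as well and do not rank transcripts of different genes. CG34296, whose probe set read highest in control discs, had 13.63 and 13.12 there and 8.31 and 8.78 in mutant discs. Its mutant level still lay far above the medians of the mutant disc arrays, 5.55 and 5.57. CG31705 had a mutant mean of 9.41, with 11.21 and 11.85 in controls. In 21 of the 83 genes both mutant arrays lay above the medians of their arrays, and in 13 both lay below the lower quartiles, where background limits how large a difference can be read. The median mutant mean over the 83 genes was 4.93, against 8.51 in control discs. The 3 measured fat body genes, which read about 15 in larvae, had means of 5.11 and 5.36 in the mutant disc arrays. If such readings are background, it reaches above the lower quartiles, which was not tested. The fold values of members that read as low are then uncertain, beyond the 13 counted. Ranked within their arrays, the 83 genes had a median percentile of 68.6 in control discs and 40.1 in mutant discs. All genes with only a CG number lay at 48.7 and 48.2. The rule used these disc values and required a fall, so nothing is read from this contrast.

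**Figure D2:**
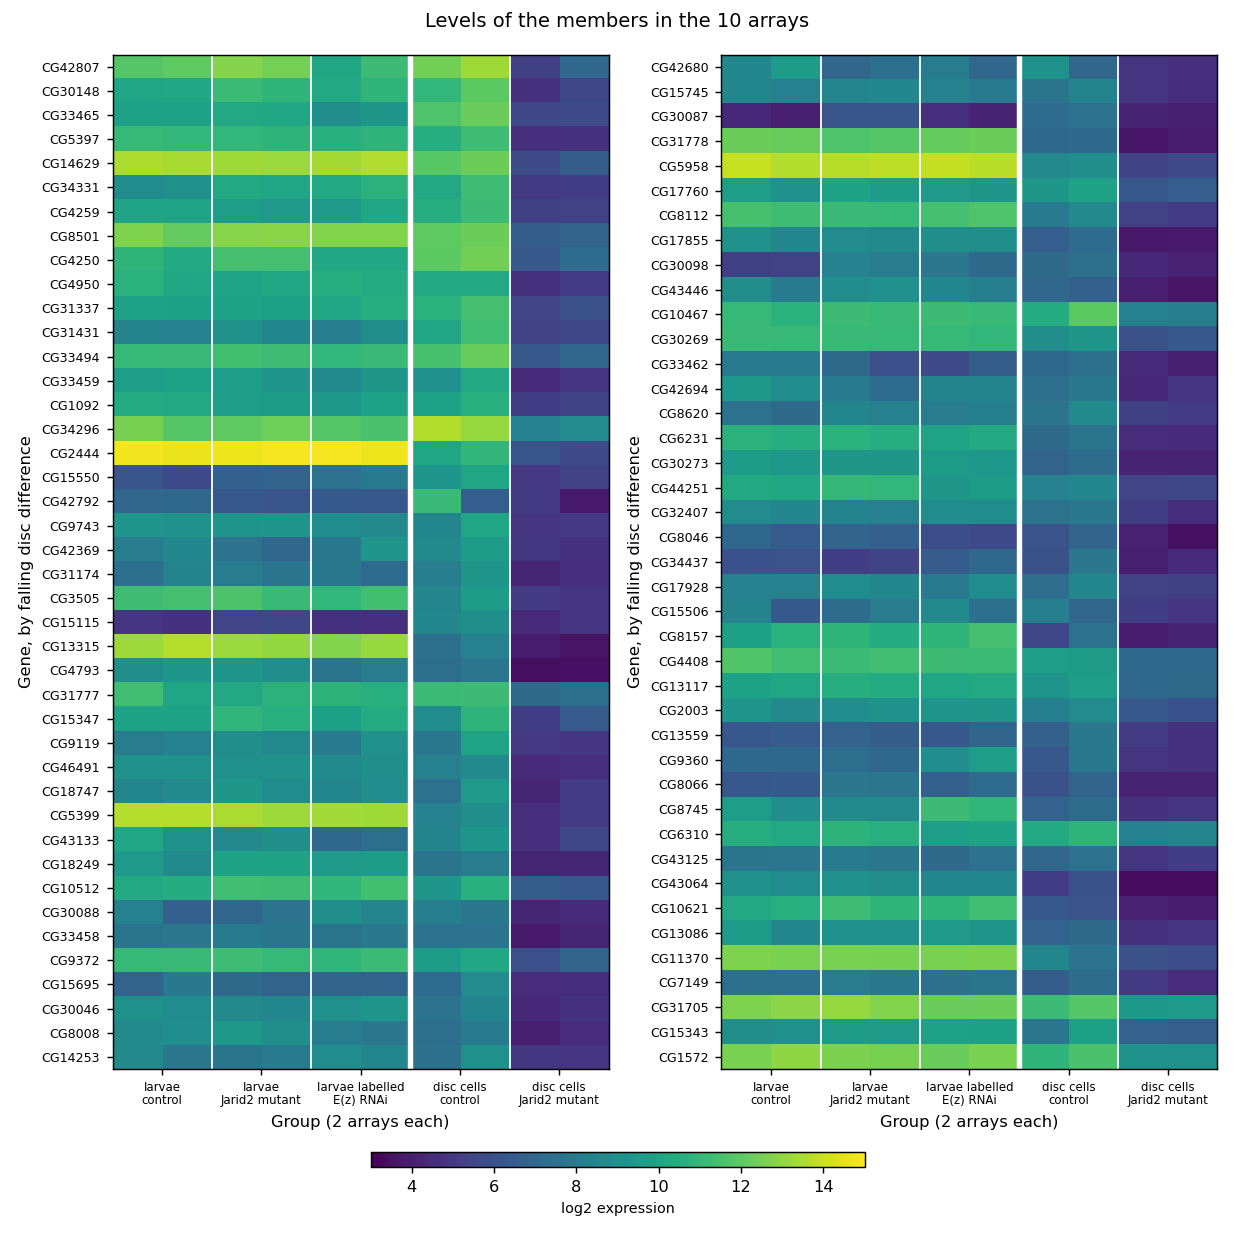
Log2 expression (colour, 3 to 15) of the 83 members in each of the 10 arrays, 2 columns per group, with genes ordered by falling disc difference down the left panel and then the right panel. The last 2 columns of each panel, the Jarid2 mutant disc arrays, are the darkest for nearly every gene, while levels in the 3 larval groups span the scale and are alike across columns for most genes.

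The genes just inside the limit were CG1572, at 10.87 and 11.54 in control discs and 9.14 and 9.18 in mutant discs, CG15343, at 7.70 and 9.79 against 6.78 and 6.61, and CG31705. Just outside lay CG13321 with a difference of 1.99, CG5335 with 1.96 and CG14642 with 1.95. The values on both sides of the limit thus formed a continuous series. CG1208 exceeded a difference of 2 (2.28) but was left out because its first control array, at 5.10, lay under its second mutant array, at 5.75.

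Of the 83 genes 29 belong to a protein family that could be given with confidence as background, and 54 are left without a role. Genes left without a role can belong to known families as well, so the family counts here are minimal. The largest family given was that of trypsin-like serine proteases, secreted enzymes that cut other proteins. In flies they include members of clotting, melanisation and Toll-activating cascades. This family was given to 12 members, and their disc differences ran from 2.99 to 6.28 with a median of 3.54. CG33465 read 11.69 and 12.25 in control discs and 5.61 and 5.76 in mutant discs. CG4259 read 10.48 and 11.23 against 5.26 and 5.31, and CG33459 read 9.09 and 10.24 against 4.41 and 4.89. These 3 were the genes given this family among the 14 widest gaps, and all 3 had the second control array as the higher. The others were CG3505 with a difference of 4.11, CG4793 with 4.02, CG30088 with 3.57, CG33458 with 3.51, CG9372 with 3.47, CG30087 with 3.24, CG30098 with 3.06, CG33462 with 3.00 and CG42694 with 2.99.

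Protease inhibitors and another protease family were also present. CG31777 and CG31778, of the Kunitz inhibitor family, differed by 3.97 and 3.23. CG8066, of the cystatin family of cysteine protease inhibitors, differed by 2.26, and CG4408, of the metallocarboxypeptidase family, by 2.54.

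Lipid genes among the members were CG9743, of the fatty acid desaturase family, with a difference of 4.37, CG5958, of the lipid-binding CRAL-TRIO family, with 3.21, CG8112, of the sterol O-acyltransferase family, with 3.09, and CG7149, a phosphotransferase of phospholipid synthesis, with 2.12. Other metabolic genes were CG10512, of the malate and lactate dehydrogenase family, at 3.59, CG10467, of the aldose epimerase family, at 3.01, CG9360, a short-chain dehydrogenase, at 2.26, CG8745, an aminotransferase family member, at 2.22, and CG10621, of the homocysteine methyltransferase family, at 2.17. Membrane transporters were CG8008 at 3.33 and CG8046 at 2.65, both of the major facilitator family, and CG6231, of the organic cation transporter family, at 2.93. CG17760, of the G protein alpha subunit family, read 9.35 and 9.92 in control discs and 6.31 and 6.59 in mutant discs. These enzymes and transporters lay mostly in the lower part of the range, with 1 of the 12 at or above a difference of 4.

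The members without a role ran from CG42807 down to CG1572. Those between 4 and 5 were CG1092 (4.88), CG34296 (4.83), CG2444 (4.57), CG15550 (4.50), CG42792 (4.41), CG42369 (4.34), CG31174 (4.33), CG15115 (4.10) and CG13315 (4.02). Between 3 and 4 lay CG15347, CG9119, CG46491, CG18747, CG5399, CG43133, CG18249, CG15695, CG30046, CG42680, CG14253, CG15745, CG17855, CG43446 and CG30269. Between 2 and 3 lay CG8620, CG30273, CG44251, CG32407, CG34437, CG17928, CG8157, CG15506, CG13117, CG2003, CG13559, CG6310, CG43125, CG43064, CG13086, CG11370, CG31705, CG15343 and CG1572. For these genes only the array values are described here.

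For 80 of the 83 genes the array held a single one-gene probe set, so the difference rests on it alone. Of the 13 probe sets that were not of the plain kind, 6 carried the suffix of probes shared by transcripts of a gene and 7 the suffix of probes shared between similar sequences. The 3 other genes had 4 further probe sets. CG15115 differed by 4.10 with its brighter probe set and 3.51 with the other, and CG44251 by 2.84 and 2.94. CG4793 differed by 4.02 with its brightest probe set but by 0.26 and 0.11 with the others, which read at most 3.38 in any disc array, under the lower quartiles. The 4 further probe sets all had the controls higher.

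Markers of other cell types moved with these genes. Of 11 listed haemocyte markers 9 met the same rule, and all 11 had higher control means, with a median difference of 5.01. Their mean level was 10.42 and 11.18 in control discs and 6.05 and 6.40 in mutant discs. The surface gene He read 12.18 and 12.79 against 4.69 and 6.20, and the GATA factor gene srp read 10.41 and 10.77 against 3.74 and 4.24. srp was the only haemocyte marker with both mutant arrays below the lower quartiles; the scavenger receptor gene crq, at 9.47 and 9.55 against 8.74 and 8.81, and ush differed by 0.73 and 0.67. Of the crystal cell markers, the prophenoloxidase genes PPO1 and PPO2 differed by 6.64 and 5.49, while lz, which is also an eye gene, differed by -0.63. The part of haemocyte RNA in the disc values of the 83 genes was not tested. In such bulk samples fewer cells of a type and less RNA per cell cannot be told apart.

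Other marker lists differed by smaller amounts. The muscle precursor genes twi and htl differed by 2.23 and 1.66, with 4 listed genes of that list not measured. The 7 measured glial markers ran from -1.15 for gcm to 1.68 for repo, with 0 meeting the rule. The 10 measured eye-antenna epithelium markers had a median of -0.48 and means of 11.11 and 11.15 in control discs and 11.52 and 11.54 in mutant discs, so these markers were high in both groups. The 3 measured fat body genes, which read about 15 in larvae, had means of 5.11 and 5.14 in control discs and 5.11 and 5.36 in mutant discs, close to the array medians, and differed by -0.14 in the median. The 4 measured tracheal markers differed by 0.13 in the median, the 3 lamellocyte markers by 0.89, the 7 photoreceptor and neuron markers by -0.45 and the 5 neural progenitor markers by -0.15.

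The 2 control disc arrays differed from each other in these genes. The second control array was higher in 72 of the 83, with a median gap of 0.64, whereas over all 11982 genes it was higher in 45.8% with a median gap of -0.01. All 11 haemocyte markers were also higher in the second control array, with a median gap of 0.87, and PPO1 read 11.42 in the first and 13.21 in the second. The mutant arrays were closer, the second being higher in 50 of the 83 with a median gap of 0.09, against 55.4% of all genes. The gap between the control arrays exceeded 1 in 24 members and that between mutant arrays in 3, CG42807, CG42792 and CG15347. With the first control array alone the median difference was 3.01 and 69 genes kept a difference of at least 2 from the mutant mean. With the second alone it was 3.52 and 81 did, and 67 did with each array singly. The rule required a difference of at least 2 from the mean of these same arrays, so the counts are a description and no test.

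**Figure D3:**
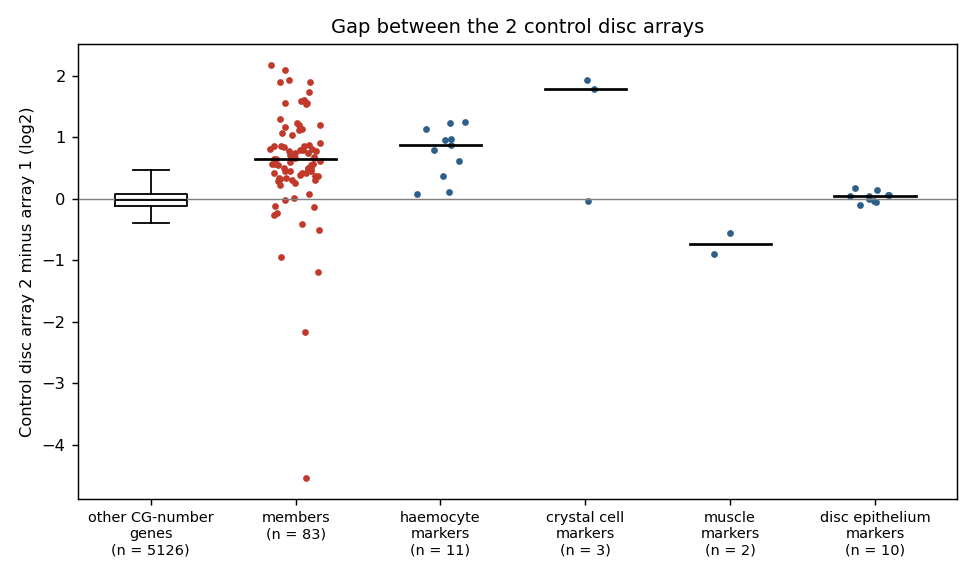
Second minus first control disc array (log2, y axis) for the members, the haemocyte, crystal cell, muscle and disc epithelium markers (points, 1 per gene, with the median as a bar) and for the other genes with only a CG number (box: quartiles and median, whiskers: central 95%). Most members and all haemocyte markers lie above 0, the muscle markers lie below it, and the disc epithelium markers lie close to it.

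The remaining 11 members were higher in the first control array. CG42792 read 11.12 in the first control array and 6.58 in the second, and 5.02 and 3.85 in mutants, the widest gap between control arrays of any member. CG42680 read 9.13 and 6.96 against 4.79 and 4.65. CG15506 read 8.14 and 6.96 against 5.21 and 4.78, and CG11370 read 8.50 and 7.56 against 5.95 and 5.85. The mean of the 2 controls therefore describes neither array well for CG42792 and CG42680. CG34296, CG30088, CG43446, CG10621, CG4408, CG4950 and CG33458 were higher in the first array by smaller amounts. The muscle precursor genes had the same order, twi at 8.29 and 7.39 and htl at 8.03 and 7.48, and whether they share a source with these genes was not tested.

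In whole larvae the genes read higher in the median than all genes with only a CG number. Their control larval means had a median of 9.18, against 8.23 for all genes with only a CG number, and a median percentile within the array of 71.2 against 58.6. The rule left out genes near background in control discs: the lowest control disc mean of a member was 5.57. All genes with only a CG number had a median of 5.51 there. The sets are thus unlike in level by choice, and nothing is read from their larval contrast. In 37 genes both control larval arrays lay above the upper quartile of their array. The share of all genes with only a CG number in that position was not counted. CG2444 read 14.77 and 14.67 in control larvae and 10.07 and 10.92 in control discs. CG5958 read 13.96 and 13.62 in control larvae, and CG5399 read 13.66 and 13.68, against control disc means of 8.81 and 8.66. These 3 thus stood far higher in the whole animal than in control disc cells, with no statement in the labels on how both tissues were brought to one scale.

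Other members were dim in control larvae. CG30087 read 4.41 and 4.04, CG15115 read 4.81 and 4.76, and CG30098 read 5.26 and 5.32. The first 2 lay below the lower quartiles of both control larval arrays, and they were the only members of which that was true. In 10 genes both control disc arrays exceeded all 6 larval arrays, an order met by 22.2% of all genes with only a CG number. These were CG33465, CG4259, CG4250, CG31337, CG31431, CG33494, CG34296, CG15550, CG15115 and CG30087. In 31 genes both control disc arrays lay below all larval arrays, an order met by 61.0% of all genes with only a CG number. In 81 genes both mutant disc arrays lay below all 6 larval arrays, an order met by 60.1% of all genes with only a CG number, CG15115 and CG30087 being the exceptions. The rule used the disc values in these orders, and nothing is read from the counts.

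For the larval effect of the Jarid2 mutation, mutant and control larvae were set against each other in a limma fit over all probe sets, and a gene was called at an adjusted p under 0.05. Of the 83 genes 3 rose and 0 fell, where 0.576% of all genes with only a CG number rose and 0.422% fell. CG30098, a serine protease family gene, read 5.26 and 5.32 in control larvae and 8.31 and 8.10 in mutant larvae. This was a rise of 2.91 ± 0.22 (SE, n = 2 arrays per group), or 7.54-fold (limma, adjusted p = 0.00926). Its control values lay just above the lower quartiles of their arrays, 5.13 and 5.09. The fold value is uncertain if background reaches above those quartiles, which was not tested. CG30087, of the same family, read 4.41 and 4.04 against 6.12 and 6.22, a rise (limma, adjusted p = 0.0212). Both control values lay below the lower quartiles of their arrays, so the fitted difference of 1.95 ± 0.20 is set against background; against those quartiles the rise was at least 2.08-fold. CG8066, the cystatin family gene, read 6.29 and 6.38 against 7.77 and 7.73, a rise of 1.41 ± 0.19 (limma, adjusted p = 0.0445). In each the 2 mutant larval arrays were nearly equal and above both controls, the opposite order to that in discs.

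**Figure D4:**
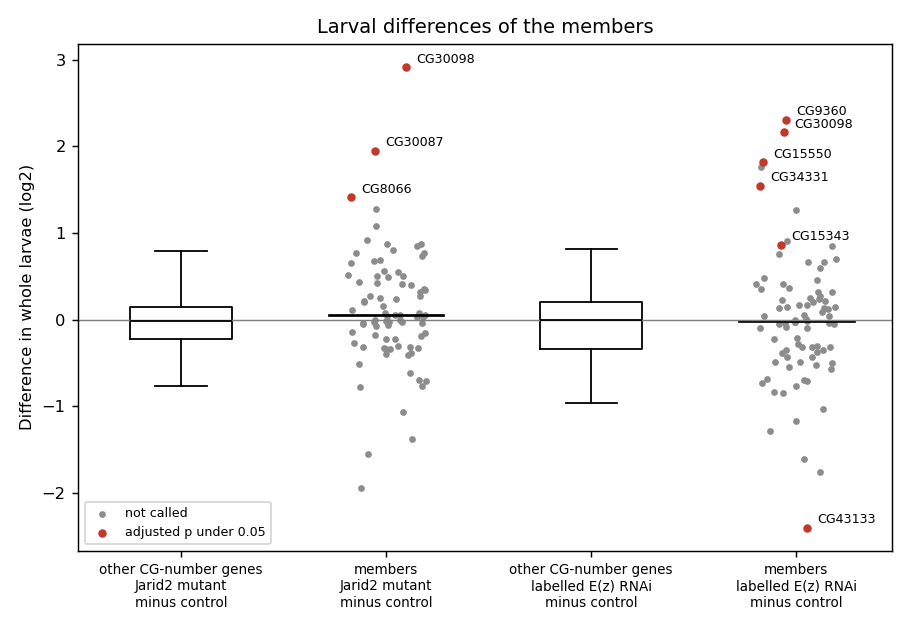
Log2 difference from control larvae (y axis) in Jarid2 mutant larvae and in larvae labelled E(z) RNAi, for the 83 members (points; red, adjusted p under 0.05; bar, median) and for the other genes with only a CG number (box: quartiles and median, whiskers: central 95%). Member medians lie at 0.06 and -0.02, close to 0, with 3 members called in the first comparison and 6 in the second.

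The 3 calls rested on all 4 arrays of the comparison. Without the first or second control array the adjusted p of CG30098 was 0.0663 or 0.0635, and without the first or second mutant array it was 0.145 or 0.115. For CG30087 these values were 0.0670, 0.104, 0.247 and 0.226, and for CG8066 they were 0.188, 0.188, 0.418 and 0.325. The sizes moved little, from 2.81 to 3.02, from 1.76 to 2.13 and from 1.37 to 1.46.

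The other 80 genes were not called in Jarid2 mutant larvae. The median larval difference over the 83 was 0.06, against -0.02 for all genes with only a CG number and 0.01 for all 11982 genes, and 74 of the 83 lay within 1 of 0. The half-width of the 95% interval of a member's larval difference was 0.49 in the median, before adjustment over all probe sets. Whole larvae hold many tissues, and in 51 of the 83 the control larval mean exceeded the control disc mean. The share of all genes with only a CG number in this order was not counted. In 61.0% of them both control disc arrays lay below all 6 larval arrays, a stricter order, so the 51 are not read as a trait of the members. The scales of discs and larvae may also differ. A change limited to disc cells need not move the larval values, so the interval says nothing on such a change. A larval difference of 2 or more, the size that defined the genes in discs, was seen in 1 member, CG30098, and it was a rise. The lowest differences were those of CG42680 (-1.94, adjusted p = 0.225), CG42694 (-1.55, adjusted p = 0.112), CG33462 (-1.38, adjusted p = 0.405) and CG42369 (-1.07, adjusted p = 0.649), all from limma and none called. At an unadjusted p under 0.05 there were 17 higher and 8 lower of the 83, where 6.41% and 4.78% of all genes with only a CG number lay.

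Both mutant larval arrays lay above both controls in 31 members and below them in 23, where 20.1% and 14.3% of all genes with only a CG number showed these orders. As shares of the 83 these were 37.3% and 27.7%. The members are unlike the other genes in level by choice, and their residual SD was 0.23 in the median against 0.16 over all probe sets. Nothing about the members as a set is therefore read from these shares. The same holds for the called shares and those at an unadjusted p in the larval comparisons. CG42807, with the widest disc gap, read 11.78 and 12.01 in control larvae and 12.80 and 12.47 in mutant larvae, which was not called (0.74 ± 0.34, limma, adjusted p = 0.662). CG30148 differed by 0.87 (limma, adjusted p = 0.260), CG5397 by -0.14, CG14629 by -0.22 and CG8501 by 0.44. Among the 12 serine protease genes the larval differences ran from -1.55 to 2.91 with a median of -0.01, and 2 rose.

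The haemocyte markers in the same larvae had a median difference of -0.26. Of the 11, NimC1 fell by 1.52 ± 0.18 (limma, adjusted p = 0.0333) and the others were not called, He at 0.05 and srp at -0.39 among them. PPO1 and PPO2 stood higher by 1.77 and 1.55 but were not called (limma, adjusted p = 0.445 and 0.529). The difference between the disc and the larval contrast was not tested for the 83 genes, since the rule fixed the disc side.

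The second larval comparison, of larvae labelled E(z) RNAi, shares its control arrays with the first. Of the 83 genes 5 rose and 1 fell, where 0.634% and 0.422% of all genes with only a CG number did. CG9360, the short-chain dehydrogenase family gene, read 7.01 and 6.99 in controls and 8.89 and 9.73 in the labelled larvae, a rise of 2.31 ± 0.28 (limma, adjusted p = 0.0360). CG30098 read 7.76 and 7.14 there, a rise of 2.16 ± 0.22 (limma, adjusted p = 0.0233) over the same control values just above the lower quartiles. It was the 1 member called in both larval comparisons. CG15550 read 6.16 and 5.67 against 7.52 and 7.94, a rise of 1.82 ± 0.23 (limma, adjusted p = 0.0366).

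CG34331 read 8.83 and 9.03 in controls and 10.25 and 10.71 in larvae labelled E(z) RNAi, a rise of 1.55 ± 0.19 (limma, adjusted p = 0.0376). In Jarid2 mutant larvae it differed by 1.27 and was not called (limma, adjusted p = 0.0679). CG15343 rose by 0.87 ± 0.11 (limma, adjusted p = 0.0439), from 8.93 and 9.01 to 9.86 and 9.81. CG43133 read 10.04 and 9.13 in controls and 7.04 and 7.33 in the labelled larvae, a fall of -2.40 ± 0.31 (limma, adjusted p = 0.0428). It was the single member lower there by a called amount, and its 2 control arrays were the farthest apart among the called genes.

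**Figure D5:**
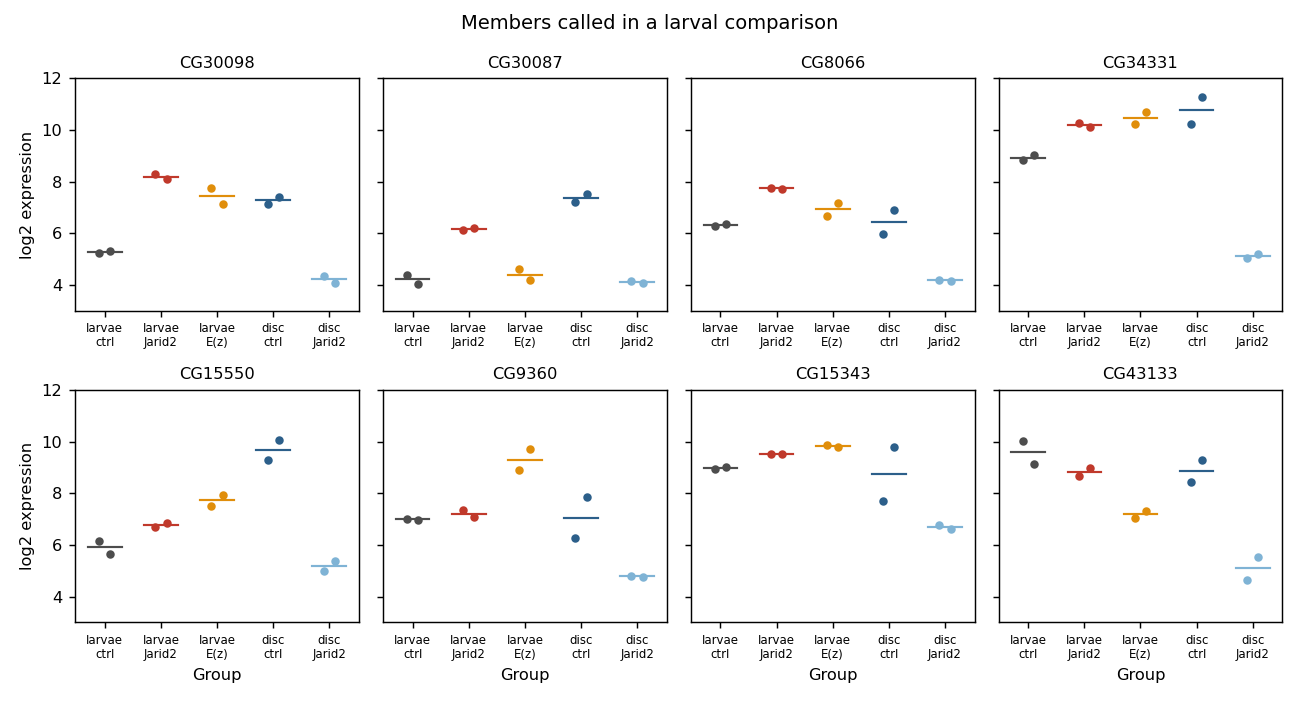
Log2 expression (y axis) in the 10 arrays of the 8 members called in a larval comparison, points for arrays and bars for means, by group (larvae: control, Jarid2 mutant, labelled E(z) RNAi; disc cells: control, Jarid2 mutant). CG43133 reads lower in larvae labelled E(z) RNAi than in control larvae, and the other genes read higher in the group where they were called. All 8, like all 83 members, have their lowest mean in mutant disc cells, an order that the rule favours. For CG30087 that mean, 4.12, is close to the 4.22 of control larvae.

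Leaving out arrays ended these calls as well. Without either control array, either Jarid2 mutant array (used here for the residual variance alone) or the second array of the labelled group, 0 of the 83 were called in either direction. Without the first array of that group CG9360 alone was called (2.73, limma, adjusted p = 0.0338). A fit of these 2 groups alone called 0, with adjusted p from 0.110 to 0.165 for the 6 genes. Over the 83 genes the median difference was -0.02, against -0.01 for all genes with only a CG number and 0.03 for all 11982 genes, and 71 lay within 1 of 0. At an unadjusted p under 0.05 there were 13 higher and 19 lower of the 83, where 9.02% and 5.99% of all genes with only a CG number lay. Both labelled arrays lay above both controls in 21 members and below them in 27, against 24.6% and 14.2% of all genes with only a CG number. As shares of the 83 these were 25.3% and 32.5%. The sets are unlike in level and spread, as above, so nothing is read from these shares. The haemocyte markers had a median difference of 0.11 there, and of the 11 NimC1 alone was called, with a fall of -1.46 ± 0.18 (limma, adjusted p = 0.0388).

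The 2 larval groups were also compared directly. Jarid2 mutant larvae read higher than larvae labelled E(z) RNAi by a called amount in 3 members and lower in 3, where 0.634% and 0.768% of all genes with only a CG number did. CG44251 was higher by 1.52 ± 0.13 (limma, adjusted p = 0.0115). CG30087 and CG15115 were also higher (limma, adjusted p = 0.0253 and 0.0463), but both arrays labelled E(z) RNAi lay below their lower quartiles for these genes. Against those quartiles CG30087 was at least 1.90-fold and CG15115 at least 1.23-fold higher, the fitted differences being 1.78 and 0.85. CG8745, the aminotransferase family gene, was lower by -2.38 ± 0.27 (limma, adjusted p = 0.0252), CG9360 by -2.09 ± 0.28 (limma, adjusted p = 0.0382) and CG34437 by -1.40 ± 0.20 (limma, adjusted p = 0.0463). The direct comparison was planned only for members called in 1 of the 2 larval comparisons with controls. CG44251, CG15115, CG8745 and CG34437 were called in neither, so their direct calls fall outside that plan. CG8745 read 9.68 and 8.90 in control larvae, 8.72 and 8.63 in Jarid2 mutants and 11.20 and 10.90 in larvae labelled E(z) RNAi. CG44251 read 10.31 and 10.21, then 10.97 and 10.93, then 9.34 and 9.52, so the control level lay between the other groups, and its second probe set showed the same order. Without either Jarid2 mutant array 0 of the 83 were called in either direction, and the same was found when the second of the arrays labelled E(z) RNAi was left out. Leaving out the first of them gave 0 higher and 1 lower, and without either control array 4 were higher and 1 lower.

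Some of the genes are neighbours. By the order of genes in the RefSeq table of assembly Release 6, 82 of the 83 were placed, 23 each on 2R and 3R, 16 on 2L, 12 on 3L and 8 on X. As shares these were 28.05% on 2R and 28.05% on 3R, where 20.4% and 25.0% of all measured genes lie. On 2L, 3L and X the shares were 19.5%, 14.6% and 9.76%, where 18.5%, 19.7% and 15.7% of all measured genes lie. The arms of all genes with only a CG number were not counted, and nothing is read from these shares. Of the members 18 formed 8 runs with no other measured gene between them. Such runs were not counted for other sets of genes with only a CG number, so nothing is read from these counts. The serine protease genes CG30088, CG30087 and CG33462 were 1 run of 3 on 2R, with disc differences of 3.57, 3.24 and 3.00, and CG33458 and CG33459, of the same family, were a pair on 2R with 3.51 and 5.01.

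The other runs were CG4250, CG30269 and CG30273 on 2R, the transporter genes CG8008 and CG8046 on 2R, the Kunitz inhibitor genes CG31778 and CG31777 on 2L, and on 3R the pairs CG31174 and CG31431, CG43125 and CG34437, and CG15506 and CG34296. In Jarid2 mutant larvae CG30087 rose. CG30088 beside it read 8.24 and 6.67 in control larvae and 6.95 and 7.59 in mutant larvae, and CG33462 read 7.92 and 7.92 against 7.16 and 5.93, both without a call. CG15506 and CG34296, in contrast, shared the order of the 2 control disc arrays, the first being the higher in each.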

How the data were processed

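The authors deposited 1 table of log2 expression values per probe set, as the value range shows; limma 3.4.3 is listed among the tools per the submitters' processing notes. The labels state no background correction, normalization or probe set summary. All 10 columns were matched to samples by accession. Of 18952 probe sets 183 array controls were left out. Genes were named from the platform annotation where a probe set had 1 gene (13647 probe sets; 402 had several and 4720 none), with the brightest probe set over 10 arrays per gene; 13544 were matched to RefSeq. Larval comparisons were fitted with lmFit and eBayes of limma 3.58.1 (R 4.3.3) to the 6 larval arrays, without covariates, with 3 residual and 2.72 prior degrees of freedom, two-sided, adjusted by Benjamini-Hochberg over 18769 probe sets. The disc arrays were kept out of this fit because their spread entered the choice of genes and was smaller than the larval spread. The fit was tested on simulated data. Members, markers and lists were chosen with earlier results of these data known. Genes named were the 12 with the largest disc difference, the highest control discs, those called in larvae, extremes of larval level, those around the limit of 2, those with discordant probe sets and adjacent members. Promoter and protein features were not analysed here. Labels do not say that replicates came from separate cultures, so the p-values reflect only how these samples varied, possibly for technical reasons, and 2 arrays per group limit the precision. Figures were drawn with matplotlib 3.10.9.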

Additional observations from a re-analysis of the deposited data

Results flagged for a closer look

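In 31 of the 83 genes both Jarid2 mutant larval arrays lay above both larval controls, while both mutant disc arrays lay below both disc controls, as the rule required of all 83. The larval order was the reverse in 23 genes, against 14.3% of all genes with only a CG number. The difference between tissues was not tested, and 20.1% of all genes with only a CG number showed the larval order. The members are unlike those genes in level by choice, so nothing is read from the shares. Only CG30098 (2.91), CG30087 (1.95) and CG8066 (1.41) passed the larval test.

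The other genes, not called and each given by its larval difference of mutant minus control, were CG34331 (1.27), CG8620 (1.08), CG10512 (0.91), CG15550 (0.87), CG30148 (0.87), CG4250 (0.85), CG18249 (0.80), CG15115 (0.77), CG15347 (0.76), CG42807 (0.74), CG44251 (0.69), CG9119 (0.67), CG10621 (0.65), CG31431 (0.56), CG15343 (0.55), CG17928 (0.51) and CG7149 (0.51). Differences under 0.5 were those of CG18747 (0.49), CG8501 (0.44), CG13117 (0.42), CG8008 (0.41), CG33465 (0.34), CG10467 (0.32), CG13559 (0.27), CG33494 (0.25), CG6310 (0.24), CG9360 (0.21) and CG43125 (0.21).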

How the results depend on the processing

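The number of genes that met the rule was 54 with a difference of at least 3 and from 73 to 91 with 1 disc array left out; without the first or second control disc array 81 of 91 and 69 of 73 were among the 83, and other alternatives stayed within 1.5 times. For larval Jarid2 the 3 rises became 1 with the dimmest 30% omitted, which removes CG30087 from the test, 1 with the replicate block and 0 to 3 with 1 array left out, while the count of falls, 0, became 1 with all 5 groups in one fit or median centring and stayed at 0 with arrays left out. For larvae labelled E(z) RNAi the 5 rises became 0 with the 2 compared groups alone, 1 with the dimmest 30% omitted, 2 with array weights, 0 with the replicate block, 1 with the mean of all probe sets and 0 to 1 with 1 array left out. The 1 fall became 3 with all 5 groups in one fit and 0 with the 2 compared groups alone, quantile normalization, the dimmest 30% omitted, the robust prior, the replicate block, the mean of all probe sets or any array left out. In the direct comparison the 3 higher became 8 with all 5 groups in one fit; of alternatives chosen after seeing the data, median centring gave 7, array weights 8, intensity trend 6, the dimmest 30% omitted 1, the replicate block 0 and arrays left out 0 to 4. The 3 lower became 1 with the dimmest 30% omitted or the mean of all probe sets, 0 with the replicate block and 0 to 1 with arrays left out. Over all probe sets that fit called 251 higher and 200 lower for larval Jarid2, against 78 and 76, and 493 and 276 for labelled E(z) RNAi, against 105 and 64. Across the 9 larval calls and their alternatives 60 of 143 kept the call, 83 lost it and 0 changed sign; the cause was not tested. Median differences of the members moved by less than the residual SD of 0.23 under every alternative run. Replicate numbers are shared by the groups in the labels, but their deviations correlated at -0.42, -0.21 and 0.01 between larval groups. No clear positive relation by equal number was thus seen. Whether samples share a batch in another order was not tested.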

Other observations

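Genes lying next to the members were looked at as well. Of 144 measured genes that flank a member without being one, 6 (4.17%) met the same disc rule, against 0.805% of all 11802 placed genes that are not members. The haemocyte gene Hml lies beside CG8745 on 3L and read 11.19 and 12.44 in control discs and 7.13 and 7.52 in mutant discs. Erasp, beside CG30088 on 2R, read 8.28 and 9.13 against 5.02 and 4.83. LKRSDH, a gene of lysine breakdown, lies beside CG7149 on 2L and read 9.51 and 10.17 against 6.57 and 6.80. The odorant-binding protein gene Obp99b, beside CG15506 on 3R, read 10.76 and 9.64 against 6.29 and 6.15 and so had its first control array as the higher, like CG15506 and CG34296. The other 2 were Cpr49Ac (2.32), a cuticle protein gene beside CG8501, and GrlHz (2.15), beside CG42694. Any gene with only a CG number that meets the rule is a member, so only genes with other symbols could enter either share. Among all genes with other symbols 1.40% met the rule. How many of the 144 flanking genes have other symbols was not counted, so nothing is read from the 2 shares. They were noticed in the data and were not tested.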
